A study of Drosophila melanogaster with 4 samples.

Results

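The genes described here are the ecdysone receptor and transcription factors of the response to the hormone, some of which act after its first wave. They are EcR, usp, br, Eip74EF, Eip75B, Eip78C, Eip93F, Hr3, Hr4 and ftz-f1, and their probes were taken wherever the platform annotation gave a probe 1 gene symbol and that symbol, updated through the gene identifier, was one of these 10. Of the 10 genes 8 had a probe, out of 12236 genes named on the array, while Eip74EF and Eip75B had none in the annotation used here. The 8 genes had 13 probes, of which br had 5, Hr3 had 2 and the other 6 genes had 1 each, and all 13 gave a value on every array.

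Ecdysone is the steroid hormone that times moulting and metamorphosis in insects. It enters the nucleus of its target cells and binds a pair of nuclear receptors, EcR and its partner usp, and the bound pair switches on a small set of early genes that encode further transcription factors, which in turn control the genes that rebuild the larva into a fly. In the third instar eye disc, ecdysone has been reported to be needed for the wave of photoreceptor differentiation to advance, and br is switched on around that wave. Whether EcR and usp are needed for that step was not analysed here.

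Drosophila larvae of the third instar expressed GFP-B52 or, in the control group, GFP-NLS (GFP carrying a nuclear localisation signal), both through the GMR driver, whose activity in the larva lies mainly in the differentiating part of the eye disc. B52 is a splicing factor of the SR family, and the experiment looked for messenger RNAs it binds there. Each pool held the dissected front ends of 600 animals, which also contain brain, ring gland, salivary glands and fat body, and polyadenylated RNA that came down with an antibody to GFP was put on two-colour arrays, the GFP-B52 precipitate against the GFP-NLS precipitate. There were 2 replicates, each hybridised in both dye orientations, which makes 4 arrays but n = 2. Separate larvae for each replicate are not stated in the labels, so p-values reflect the spread between the samples at hand, and that spread may be technical.

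Arrays on which Cy5 labelled the GFP-B52 precipitate are called B52-Cy5 arrays and the others B52-Cy3 arrays. Values are deposited log ratios, and neither their log base nor their direction is known here. After each array had been centred on its median, the B52-Cy5 arrays were multiplied by -1, so that a ratio fixed to the dyes becomes a ratio fixed to the precipitates. The outcome is called the turned log ratio. Positive values mark the side on which B52 probe 13309 lay, at 0.451 and 0.411 in replicate 1 and 0.510 and 0.502 in replicate 2. In such pairs the B52-Cy5 array comes first and the B52-Cy3 array second. That probe, 1 of 5 for B52, was the basis for choosing the turning, and which precipitate was higher on its side is unknown. The other 4 did not keep 1 side on all 4 arrays, with means of 0.131 for B52 probe 832, 0.108 for 2144, 0.03 for 2736 and -0.326 for 4048. Nor did the arrays of a replicate run together after turning in both cases: across 13963 probes, which are not independent replicates, the pair of replicate 1 correlated at r = -0.608 and that of replicate 2 at r = 0.167, and as deposited the signs are reversed. A ratio that turns with the dye makes this r positive after turning, which held in replicate 2 and not in replicate 1, and every turned value below depends on that reading. In a precipitate from pooled tissue, the number of cells that express a gene, the RNA per cell and the share of that RNA bound cannot be told apart, and tissue markers could be compared only as ratios, since levels were not analysed here.

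The farthest from 0 among these genes was 1 probe of br, the broad gene, whose zinc finger proteins are made in several isoforms by alternative splicing and set the pupal programme. br probe 1456 had turned log ratios of -0.428 and -0.250 in replicate 1 and -0.418 and -0.353 in replicate 2. All 4 arrays were on the negative side, opposite to B52 probe 13309, and none lay nearer to 0 than 0.250. Its mean was -0.362 ± 0.0329 (SD, n = 2), a 2.30-fold difference if the values are log10 and a 1.29-fold one if they are log2. In limma over all 13963 probes its unadjusted p was 0.000875 and its adjusted p 0.268, so it did not pass the threshold of 0.05. Only 0.358% of probes had a mean as low. With this probe included, 49 probes kept 1 direction and lay at least 0.250 from 0 on all 4 arrays. Of these, 37 were on the negative side and 12 on the positive side.

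As deposited, before centring and turning, br probe 1456 read 0.432 and 0.420 on the B52-Cy5 arrays and -0.244 and -0.351 on the B52-Cy3 arrays. The sign therefore followed the dye that carried the B52 RNA, in both replicates. If the columns already held a fixed ratio of the precipitates and needed no turning, the mean would be 0.0607, with an unadjusted p of 0.539 in limma.

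The other 4 probes of br did not all lie with it. br probe 5697 was at 0 and -0.369 in replicate 1 and at -0.216 and -0.353 in replicate 2, a mean of -0.234 ± 0.0707 (SD, n = 2; unadjusted p = 0.00743, adjusted p = 0.281 in limma). No array of this probe was on the positive side, but the first sat at the array median. br probe 14897 split by replicate, with 0.057 and 0.003 in replicate 1 against -0.366 and -0.299 in replicate 2, and its mean of -0.151 ± 0.256 was smaller than its spread.

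The remaining pair of br probes split by dye. br probe 10961 was at -0.380 and 0.216 in replicate 1 and at -0.109 and 0.020 in replicate 2, with the negative value on the B52-Cy5 array each time, and its mean was -0.0633 ± 0.0265 (SD, n = 2). br probe 4385 was at -0.100 and 0.232 in replicate 1 and at -0.201 and 0.215 in replicate 2, with a mean of 0.0365 ± 0.0417. These 2 probes thus had positive deposited values on all 4 arrays, whichever dye carried the B52 RNA.

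Over its 5 probes br had a mean of -0.155 ± 0.0750 (SD, n = 2; unadjusted p = 0.0212, adjusted p = 0.226 in limma over genes), and the gene means were negative on all 4 arrays, between -0.262 and -0.0336. The SD between its probe means was 0.154, where the median over 474 genes with several probes was 0.0574, and 88.4% of those genes had a smaller one. Among the 7 genes with at least 5 probes the median was 0.130. Where in the br transcripts each probe lies was not analysed here, so the probes could not be assigned to isoforms.

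**Figure D1:**
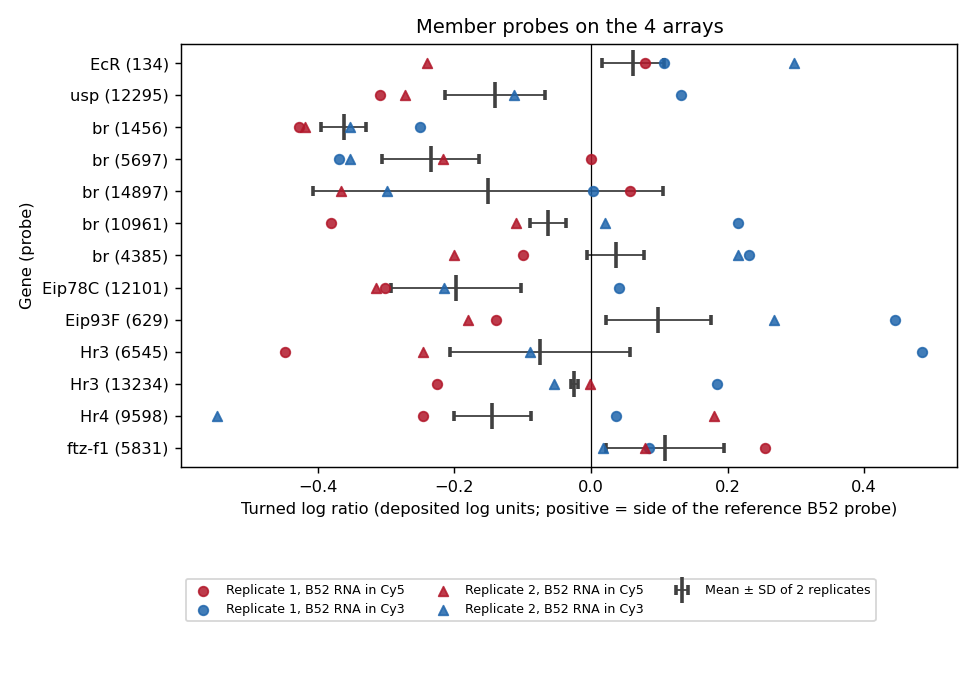
Turned log ratios (deposited log units, positive on the positive side) of the 13 probes, 1 row each, with circles for replicate 1, triangles for replicate 2, red for B52-Cy5 and blue for B52-Cy3 arrays; bars give the mean ± SD of the 2 replicate means. br probe 1456 has all 4 points between -0.428 and -0.250, and in the rows of br probes 10961 and 4385 and of Eip93F both red points lie below 0 and both blue points above it.

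Neither subunit of the receptor pair kept 1 side on all 4 arrays. EcR, the subunit that binds the hormone, was at 0.079 and 0.107 in replicate 1 and at -0.240 and 0.298 in replicate 2. Of its 4 arrays 1 lay on the negative side, and the mean was 0.0610 ± 0.0453 (SD, n = 2; unadjusted p = 0.259, adjusted p = 0.615 in limma). usp, the fly's retinoid X receptor and partner of EcR, was at -0.309 and 0.132 in replicate 1 and at -0.272 and -0.112 in replicate 2. Its mean was -0.140 ± 0.0732 (unadjusted p = 0.0453, adjusted p = 0.377 in limma), and the B52-Cy3 array of replicate 1 went the other way. The means of the subunits thus had opposite signs, but neither passed over all probes and the difference between them was not tested.

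Among the hormone-inducible nuclear receptors, Eip78C was the farthest from 0. Eip78C, an orphan receptor from a puff of the salivary gland chromosomes, was at -0.302 and 0.041 in replicate 1 and at -0.314 and -0.215 in replicate 2. Of its 4 arrays 3 were at -0.215 or lower, and the mean was -0.198 ± 0.0948 (SD, n = 2; unadjusted p = 0.0187, adjusted p = 0.3 in limma).

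Hr3 and Hr4 act after the first wave of early genes, Hr3 as an activator of ftz-f1 and Hr4 as a repressor of early genes. Hr4 was at -0.246 and 0.037 in replicate 1 and at 0.180 and -0.548 in replicate 2. Its mean of -0.144 ± 0.0562 (SD, n = 2; unadjusted p = 0.0355, adjusted p = 0.354 in limma) had a small spread between replicates although the arrays within each had opposite signs. Without the B52-Cy3 array of replicate 2, which leaves that replicate 1 dye orientation, the mean was 0.0377.

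The probes of Hr3 had means near 0. Probe 6545 was at -0.448 and 0.485 in replicate 1 and at -0.246 and -0.089 in replicate 2, with a mean of -0.0745 ± 0.132 (SD, n = 2). Probe 13234 was at -0.225 and 0.184 in replicate 1 and at -0.002 and -0.054 in replicate 2, with a mean of -0.0243 ± 0.0053. In replicate 1 both Hr3 probes were negative on the B52-Cy5 array and positive on the B52-Cy3 array, and in replicate 2 all 4 values were negative.

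ftz-f1, the receptor that makes prepupal tissues competent to answer the next ecdysone pulse, was the only probe with all 4 arrays on the positive side. It lay at 0.255 and 0.085 in replicate 1 and at 0.079 and 0.017 in replicate 2. Its mean of 0.109 ± 0.0863 (SD, n = 2; unadjusted p = 0.102, adjusted p = 0.469 in limma) was not far above the spread between replicates.

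Eip93F, a transcription factor that directs cell death and adult fates at the end of the prepupal period, was at -0.139 and 0.445 in replicate 1 and at -0.180 and 0.268 in replicate 2. Both B52-Cy5 arrays were negative and both B52-Cy3 arrays positive, and the mean was 0.0985 ± 0.0771 (SD, n = 2; unadjusted p = 0.121, adjusted p = 0.490 in limma). Its deposited values were positive on every array, between 0.143 and 0.451.

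Taking the 13 probes as a set, 9 had a negative mean and 4 a positive one, with a median of -0.0745 where the median of all probes was -0.0025 and 51.2% of probes were negative. No probe passed an adjusted p of 0.05 in limma, as over the whole array, where the share was 0%. An unadjusted p under 0.05 was reached on the negative side by 5 of the 13, namely br probes 1456 and 5697, Eip78C, usp and Hr4, beside 7.73% of all probes, and on the positive side by 0 of the 13, beside 5.22%. The br probes share a gene, so these 5 stand for 4 genes, and usp and Hr4 lie near each other on the X chromosome, with 7 annotated genes between them in Release 6. The members were chosen with earlier results of these data known, so such counts are not independent of that choice. With the arrays scaled to a common spread, or without the B52-Cy5 array of replicate 1, only br probes 1456 and 5697 had an unadjusted p under 0.05. Of all 13963 probes, 638 and 488 had such a p on the negative side in these fits. The count on the negative side was 4 without the B52-Cy5 array of replicate 2, beside 934 of all probes. EcR and Eip93F had such a p on the positive side there, beside 675 of all probes. The negative count was 4 without the B52-Cy3 array of replicate 1, beside 443, and 3 without that of replicate 2, beside 860. With the 4 arrays taken as separate samples, which they are not, it was 3, beside 658 of all probes. A dye term in that fit left the same 3, beside 703. These were br probes 1456 and 5697 and Eip78C, so usp and Hr4 did not reach such a p in either fit.

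A direction kept on all 4 arrays was rarer. It was found for 1 of the 13 probes on the negative side, br probe 1456, beside 8.04% of all probes, and for 1 on the positive side, ftz-f1, beside 5.96%. These shares are near the background. The deposited values, centred but not turned, were positive on all 4 arrays for 3 of the 13, Eip93F and br probes 4385 and 10961, beside 11.4% of all probes. On that reading 10 of the 13 probes had a positive mean, beside 50.1% of all probes, and their median was 0.111. Eip93F and Hr3 probe 6545 then had an unadjusted p under 0.05 in limma on the positive side, beside 581 of all 13963 probes.

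**Figure D2:**
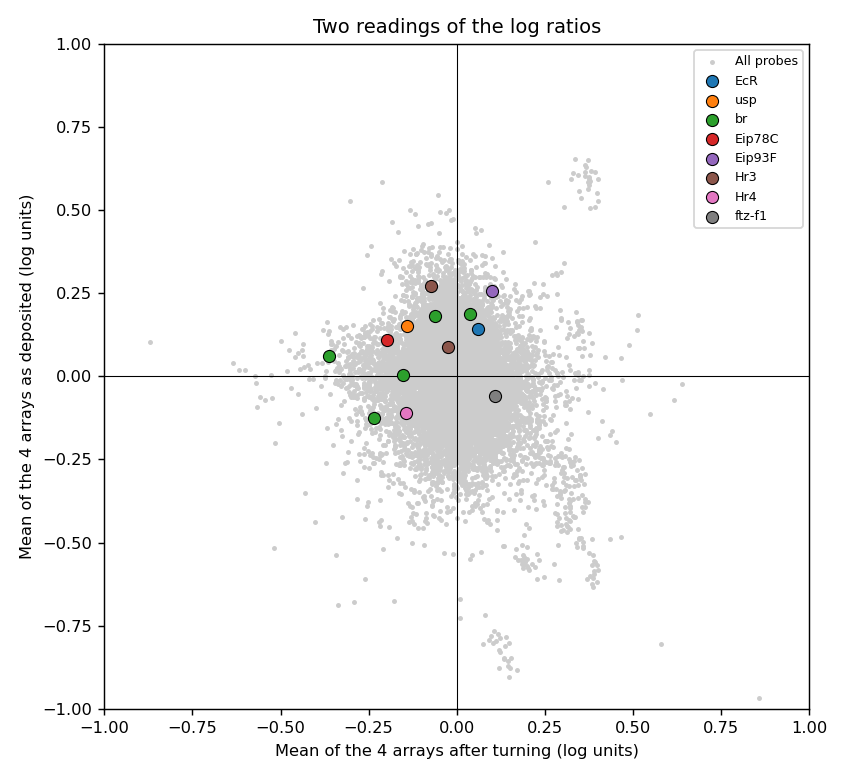
Mean of the 4 arrays after turning (horizontal, log units) against the mean as deposited and centred (vertical, log units), with all 13963 probes in grey and the 13 member probes in colour by gene. br probe 1456 lies far to the left near 0 on the vertical axis, and Eip93F and Hr3 probe 6545 lie high, at 0.258 and 0.273.

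The 4 values of a probe can be divided into the part that follows the precipitates, the part that follows the dye, the difference between replicates and the remaining interaction. These names hold for the turned values. If no turning were needed, the parts of the precipitates and the dye would change places, as would those of replicate and interaction. For br probe 1456 the comparison of the precipitates took 96.3% of the mean square and the dye 2.71%. The comparison took the largest part in 4 of the 13 probes, the others being br probe 5697 with 71.5%, Eip78C with 65.6% and ftz-f1 with 60.3%. The dye took the largest part in 6 probes, and reached 93.0% in br probe 4385 and 82.8% in Eip93F. For Hr4 and Hr3 probe 13234 the interaction was largest, at 64.8% and 60.8%, and for br probe 14897 the replicate difference, at 58.0%. Over all probes the comparison was the largest part in 25.9% and the dye in 41.5%.

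**Figure D3:**
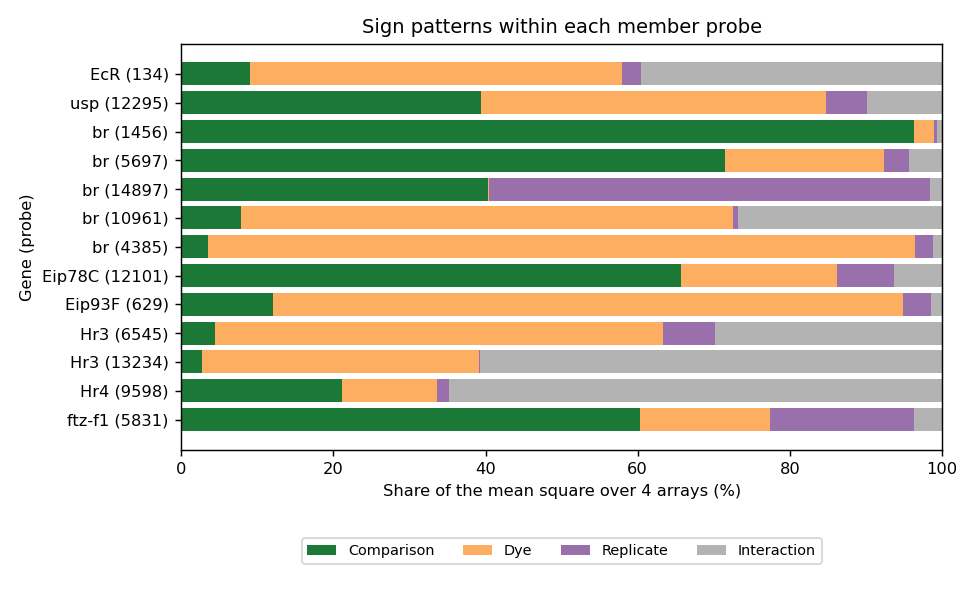
Share of the mean square of the turned values over the 4 arrays (%) that follows the precipitates (green), the dye (orange), the replicate (purple) and the interaction (grey), 1 bar per probe. The green part fills 96.3% of the bar of br probe 1456, and the orange part fills 93.0% of the bar of br probe 4385.

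By array, the lean of the 13 probes to the negative side was uneven. On the B52-Cy5 arrays their medians were -0.225 in replicate 1 and -0.216 in replicate 2, and 9 and 11 of the 13 were negative. On the B52-Cy3 arrays the medians were 0.107 in replicate 1, where 2 were negative, and -0.089 in replicate 2, where 8 were. The median of the 8 gene means was -0.0948, with 5 genes negative and 3 positive, and without the B52-Cy5 array of replicate 1 it was 0.0183. The dye and the array thus moved with this lean, and their part in it was not tested.

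Other genes of the pathway were compared by gene means in 4 lists, also chosen with earlier results of these data known. In limma over 11173 genes, 1 gene, 0.00895%, passed the adjusted p of 0.05, and no gene of the lists did. Beside the counts that follow, 9.55% of all genes had an unadjusted p under 0.05 on the negative side and 6.17% on the positive side, 54.0% had a negative mean, and the median of all genes was -0.00725.

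For ecdysone synthesis and turnover, 13 of 18 listed genes were measured, 7 on the negative side and 6 on the positive side, with a median of -0.009. An unadjusted p under 0.05 was reached by 3 on the negative side and 1 on the other. sad, a cytochrome P450 that makes ecdysone in the ring gland, was at -0.208 and -0.217 in replicate 1 and at -0.484 and -0.423 in replicate 2. All 4 arrays were on the negative side, with a mean of -0.333 ± 0.170 (SD, n = 2; adjusted p = 0.116 in limma over genes). Cyp18a1, which inactivates the hormone, had a mean of -0.209 ± 0.132, and Npc1a, which moves sterols out of endosomes, one of -0.124 ± 0.0124, each with 1 direction on all 4 arrays. woc, a zinc finger gene needed for ecdysone synthesis, lay at 0.117 ± 0.0343 on the positive side.

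Of the 13 coactivators and corepressors of nuclear receptors 12 were measured, with 9 on the positive side, a median of 0.0338 and values from -0.0193 to 0.121. The corepressor CtBP was the highest, at 0.121 ± 0.0543 (SD, n = 2), and the only one with an unadjusted p under 0.05. The chromatin remodeller Iswi lay at 0.0830 ± 0.0120, ash2, a subunit of histone methyltransferase complexes, at 0.066 ± 0.0205 and tai, a coactivator of EcR, at 0.0475 ± 0.0735. No member came as far from 0 as br did.

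Of 14 other nuclear receptors 12 were measured, with 9 on the negative side and a median of -0.0344. Hr39, the relative of ftz-f1, was at -0.479 and 0 in replicate 1 and at -0.283 and -0.195 in replicate 2, with a mean of -0.239 ± 0.000354 (SD, n = 2; adjusted p = 0.109 in limma over genes). Its replicate means were nearly equal although its arrays were not. tll, a repressor that patterns the embryonic termini and the brain, was negative on all 4 arrays, with a mean of -0.206 ± 0.0856 (SD, n = 2). The gap gene kni lay at -0.186 ± 0.223 and eg, a regulator of neuron identity, at -0.111 ± 0.0576.

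Of 21 other ecdysone-inducible genes 13 were measured, and 11 lay on the negative side, with a median of -0.0808. An unadjusted p under 0.05 was reached by 4, all on that side. ImpL2, a secreted antagonist of insulin-like peptides, was at -0.192 and -0.281 in replicate 1 and at -0.362 and -0.295 in replicate 2, with a mean of -0.282 ± 0.0651 (SD, n = 2; adjusted p = 0.103 in limma over genes). The repressor Blimp-1, which times ftz-f1, lay at -0.219 ± 0.160, the bZIP gene vri at -0.139 ± 0.0194 and ImpE2 at -0.113 ± 0.00177. ImpL2, vri and ImpE2 kept the negative side on all 4 arrays.

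**Figure D4:**
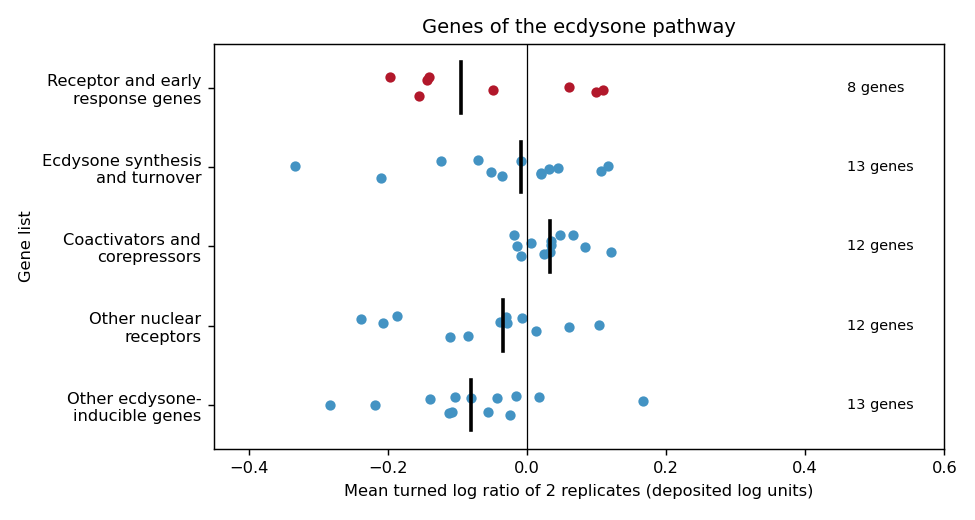
Mean turned log ratio of 2 replicates (horizontal, deposited log units) of each measured gene in 5 lists, 1 point per gene with random vertical offset, and the list's median as a black bar. The medians lie between -0.0948 for the receptor and early response genes and 0.0338 for coactivators and corepressors.

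Markers of tissues in the dissected front ends were read the same way. All 5 measured genes of the ring gland list had a negative mean, from sad at -0.333 to Ptth at -0.009. Of these, 2 had an unadjusted p under 0.05, but 4 of the 5 also stand in the synthesis list. Ptth is a gene of brain neurons, not of the gland itself, so its value does not mark the ring gland. All 4 glial markers were negative too, from Gs2 at -0.471 to moody at -0.0805, with 2 below that p. The 11 salivary gland markers went both ways, from ng1 at -0.544 to Sgs8 at 0.227, with a median of -0.0065 and 3 below that p on each side. Of 6 hemocyte markers 5 were positive, from srp at -0.105 to eater at 0.308, with a median of 0.152 and 4 below that p, all positive. The 12 eye disc markers ran from lz at -0.223 to ro at 0.11, with a median of -0.0423, 7 negative and 2 of these below that p. The 4 fat body markers ran from Fbp1 at -0.104 to Fbp2 at 0.152, with a median of 0.0144 and 1 below that p, on the positive side. The part of these tissues in the values of br, usp, Eip78C and Hr4 was not tested.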

How the data were processed

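The values the authors deposited are log ratios in another unit than counts or intensities, in 1 table of 15744 probes. Whether the ratio is fixed to the dyes or to the precipitates is not known here. For log base, direction, background correction and normalization, no statement was found in the labels or the file header. A placeholder in 16 cells was treated as missing, and between 14788 and 15394 values per array remained. The number of arrays limits the precision, and signal over background is unknown.

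Names came from the platform annotation, with symbols updated by gene identifier from a Release 6 table: 13147 probes had 1 symbol, 99 several and 2498 none here. Each array was centred on its median, and those with the GFP-B52 precipitate in Cy5 were multiplied by -1. The 2 dye orientations of a replicate, taken to share their extracts, were then averaged. The 13963 probes with a value on all 4 arrays, and the means of 11173 genes, were tested against 0 across all features with lmFit and eBayes of limma 3.58.1 under R 4.3.3, with Benjamini-Hochberg adjustment. Values stay in deposited log units. The test was checked on simulated data.

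The members and lists were chosen with earlier results of these data known. All member probes are named, with the probes of B52, of which probe 13309 sets the side, up to 4 genes of each pathway list with the largest moderated statistics, and the ends of each marker list's range. Marker lists were of eye disc, ring gland, salivary gland, fat body, hemocytes and glia. Of the list entries, phm, Fdxh, Eip55E and Eip71CD had no match as spelled. Alternatives were other centring, scaling, moderation, units and missing-value rules, leaving out replicates and arrays, a replicate block and no turning.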

Additional observations from a re-analysis of the deposited data

Results flagged for a closer look

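The 3 probes named here had both B52-Cy5 arrays on one side of 0 and both B52-Cy3 arrays on the other after turning. Their means as deposited and centred were 0.258 for Eip93F probe 629, 0.187 for br probe 4385 and 0.181 for br probe 10961. In limma without turning, which tests these means against 0, their unadjusted p was 0.0184, 0.0728 and 0.0951. The adjusted p was 0.416, 0.547 and 0.58, so none passed. Of the 13 probes none had 1 array that stood apart from the other 3 by Dixon's criterion.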

How the results depend on the processing

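Without turning, 34 probes passed the adjusted p with positive and 58 with negative values. On every array 3 member probes were then positive, beside 11.4% of all probes, and 0 negative, a side whose share is not given here. The median of the member genes was 0.126. The list medians were then 0.0328 for synthesis and turnover, 0.0297 for other nuclear receptors and -0.0055 for other inducible genes. Of the 13 member probes 8 changed sign without turning, to 0.150 for usp, 0.0607, 0.00325 and 0.181 for br probes 1456, 14897 and 10961, 0.111 for Eip78C, 0.273 and 0.0892 for Hr3 probes 6545 and 13234 and -0.058 for ftz-f1, and the means were 0.0612 for br and 0.181 for Hr3. The cause was not tested.

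With the replicate number as a random replicate block over the 4 arrays, 118 positive and 329 negative probes passed in limma, among them 1 member, br probe 1456 (adjusted p = 0.0202). That fit took a correlation of -0.664 within replicates, which makes its standard errors smaller. Robust moderation called 1 probe, on the negative side, and no member. Tested as genes, 0 positive and 1 negative passed, against 0 and 3 without centring, 7 and 19 with robust moderation, 0 and 4 with a dye term, 82 and 74 without turning and 169 and 395 with the block, and none with scaled arrays, separate arrays or at least 1 array per replicate. Without centring, 2 member probes were negative on every array, br probe 5697 joining 1456. The share of all probes in that fit is not given here.

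With 1 replicate or 1 array left out, br probe 1456 lay between -0.407 and -0.318, br probe 5697 between -0.327 and -0.142, Eip78C between -0.283 and -0.112, usp between -0.251 and -0.030 and ftz-f1 between 0.048 and 0.170, and these 5 kept their sign. The others did not: EcR lay between -0.0735 and 0.196, Eip93F between -0.0475 and 0.244, Hr4 between -0.326 and 0.0377, Hr3 probes 6545 and 13234 between -0.308 and 0.159 and between -0.127 and 0.078, and br probes 14897, 10961 and 4385 between -0.333 and 0.030, -0.212 and 0.0858, and -0.0675 and 0.141. The mean of Hr3 lay between -0.217 and 0.118 and that of br between -0.208 and -0.102. Between 1 and 3 member probes kept the positive side on every array left and between 1 and 7 the negative side. The 3 came without replicate 2 and the 7 without replicate 1, which leave fewer arrays to agree. Shares of all probes for these counts are not given here. The median of the member genes lay between -0.202 and 0.0183, and those of the lists between -0.0705 and 0.0198 for synthesis and turnover, 0.00337 and 0.0645 for cofactors and -0.122 and 0.0035 for other nuclear receptors. The other inducible genes kept a median between -0.112 and -0.0644. No probe passed in any of these fits, and of genes 3 positive and 19 negative passed without the B52-Cy3 array of replicate 2. With 1 replicate alone there is no test. With 1 array left out, its replicate holds 1 dye orientation, so a dye effect does not cancel in that replicate.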
